A study of Mus musculus with 2 samples.

Results

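Pigr, Jchain, Tnfsf13, Tnfsf13b, Tnfrsf17 and Tnfrsf13b are the 6 genes described here, out of 56980 genes counted in each library. They were chosen by name, as genes of IgA secretion and of plasma cell survival, and each matched 1 row of the deposited gene lists (ENSMUSG00000026417, ENSMUSG00000067149, ENSMUSG00000089669, ENSMUSG00000031497, ENSMUSG00000022496 and ENSMUSG00000010142 in the order above). Single cells of mouse small intestine were profiled in 1 library labelled model and 1 library labelled control by droplet RNA sequencing, which counts UMIs (unique molecular identifiers, tags that mark single captured RNA molecules). The series title names simulated microgravity, radiation and a preparation called CB001, but the labels do not say what the model animal received, how many animals went into a library, or their strain, age or sex. The labels state that the Peyer's patches, the main B cell follicles of this organ, and the mesentery had been removed when the tissue was digested. Each group is 1 library: every difference below is between these 2 libraries, has no replicate check, and carries an interval that covers counting error only.

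IgA is made by plasma cells of the gut wall, where the J chain, encoded by Jchain, links IgA monomers into dimers. The polymeric immunoglobulin receptor, encoded by Pigr, binds these dimers at the base of epithelial cells and carries them into the lumen, where part of the receptor stays on IgA as secretory component. Plasma cells depend on survival signals from neighbouring cells: BAFF (Tnfsf13b) and APRIL (Tnfsf13) are cytokines of the tumour necrosis factor family, BCMA (Tnfrsf17) and TACI (Tnfrsf13b) are receptors that bind them, and the BAFF receptor (Tnfrsf13c) serves mainly mature B cells.

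The kept cells numbered 7913 in the model library and 7329 in the control library, with a median of 3761 and 3636 UMIs and 5.38% and 10.8% mitochondrial UMIs per cell. They fell into 28 clusters, named from marker genes, and the class labels below rest on transcripts alone. Epcam, an epithelial marker, stood at 1865 and 2766 CPM (UMIs scaled to a class total of 1000000) in model and control enterocytes. Sdc1, a plasma cell marker, stood at 165 and 201 CPM in plasma cells, and C1qa, a macrophage marker, at 4192 and 4514 CPM in macrophages or monocytes. The B cell class held 270 model cells and 4 control cells, so no gene was compared between the libraries in it. Different clusters held most of the enterocytes of each library: cluster 2 held 775 of 1362 model and 279 of 1925 control enterocytes, and cluster 14 held 28 model and 838 control cells. A total of 12 kept barcodes occurred in both libraries.

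The stretch before the transcription start is shown for Pigr, the transporter, and for Tnfrsf17, the receptor most restricted to plasma cells. It is shown as 30 bases for Tnfsf13b, the survival factor gene with more UMIs. The sequences are RefSeq promoter windows of build GRCm38.p6 and not of the build the submitters name. All 6 genes matched, with 7 windows of 250 bases, since Tnfsf13b has a pair of starts. Capitals mark a motif match.

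Pigr, chr1:130826434-130826683, plus strand: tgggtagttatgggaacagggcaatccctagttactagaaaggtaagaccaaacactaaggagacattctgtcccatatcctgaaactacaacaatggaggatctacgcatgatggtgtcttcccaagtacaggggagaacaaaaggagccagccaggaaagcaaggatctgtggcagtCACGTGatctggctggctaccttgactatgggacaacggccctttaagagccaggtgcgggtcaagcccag
Tnfrsf17, chr16:11313559-11313808, plus strand: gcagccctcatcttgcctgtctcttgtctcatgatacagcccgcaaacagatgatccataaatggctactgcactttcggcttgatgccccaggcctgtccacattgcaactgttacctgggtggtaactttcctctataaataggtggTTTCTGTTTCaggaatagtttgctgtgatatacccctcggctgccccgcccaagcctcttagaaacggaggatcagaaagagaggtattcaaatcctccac
Tnfsf13b, downstream start, chr8:10006603-10006632, plus strand: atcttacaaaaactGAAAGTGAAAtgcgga

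The E-box CACGTG, a palindrome, began 71 bases before the Pigr start and occurred in 6.02% of 32851 windows of the same length. The core of an interferon response element, GAAA, any 2 bases and GAAA again, began 16 bases before the downstream Tnfsf13b start and, on the opposite strand, 101 bases before the Tnfrsf17 start, and occurred in 2.98% of all windows. A kappa-B pattern, GGG, any 2 bases, TT, any base and CC, was found on the opposite strand 61 bases before the Tnfrsf13b start. It occurred in 4.11% of all windows. None of the 3 was found in the windows of Jchain, Tnfsf13 or the upstream Tnfsf13b start.

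These 3 motifs were picked from 13 searched on both strands, after their matches in these genes had been seen, and a match describes the letters only. Of the others, GGG and CC set 5 bases apart, which contains the kappa-B pattern above, occurred in Pigr, Tnfrsf13b and Tnfsf13 and in 45.8% of all windows. CACGT, contained in the E-box, occurred in Jchain and Pigr and in 16.6%, CACCTG in Pigr and in 17.2%, GAGGAA in Tnfrsf17 and in 23.3%, and CTA and TAG set 4 bases apart in Tnfrsf17 and in 3.20%. The windows of the 6 genes held no match to the full kappa-B consensus (0.140% of all windows), CAGCTG (13.0%), the octamer (1.60%), TTC and GAA set 3 bases apart (7.02%) or the unfolded protein response element (0.563%).

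Tnfsf13b, which encodes BAFF, was lower in the model library in enterocytes, crypt cells and macrophages or monocytes. With Tnfsf13 at 17 model and 21 control UMIs in all kept cells, Tnfsf13b was the survival factor gene with enough UMIs to compare. In enterocytes it had 35 UMIs in 1362 model cells and 127 UMIs in 1925 control cells, or 2.61 CPM (1.82 to 3.63) and 11.01 CPM (9.18 to 13.1), a level 4.22-fold lower in the model library (2.88 to 6.32). In crypt stem or transit-amplifying cells it had 58 and 72 UMIs, 3.18 and 5.10 CPM, 1.60-fold lower (1.12 to 2.31), a difference that came inside 1.5-fold under 4 alternatives, with log2 ratios of −0.54 to −0.30 against −0.68. In macrophages or monocytes it had 15 and 43 UMIs, 17.97 CPM (10.1 to 29.6) and 46.4 CPM (33.6 to 62.6), 2.58-fold lower (1.41 to 5.01). The intervals of the 2 libraries did not overlap in enterocytes or in macrophages, but the share of all genes of these classes with such intervals was not counted. Over all named epithelium the gene had 103 and 218 UMIs and was 2.44-fold lower in the model library (1.92 to 3.11).

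A gene was counted as differing in a class when its ratio reached 1.5-fold either way with at least 50 UMIs in the 2 libraries together, which is a fold and not a test. By that rule Tnfsf13b differed in 3 of the 10 named classes where both libraries had 50 cells or more, against 1 for Pigr, 5 for Jchain, 2 for Tnfrsf13b and 0 for Tnfsf13 and Tnfrsf17. The share of all genes of a class that were lower by this rule was 8.99% in enterocytes, 3.77% in crypt cells and 6.71% in macrophages or monocytes and 6.85% in named epithelium. In either direction it was 25% in enterocytes, 5.59% in crypt cells, 11.5% in goblet cells, 10.2% in enteroendocrine cells, 17.9% in tuft cells, 17% in macrophages or monocytes, 9.37% in plasma cells, 5.56% in T cells, 19.3% in fibroblasts and 19% in endothelial cells.

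Other classes did not share the Tnfsf13b difference, or held too few molecules to show it. Fibroblasts had 7 and 20 UMIs, 25.1 CPM in the model and 26.2 CPM in the control library, with a ratio of 0.957 (0.342 to 2.36). T cells had 45 and 29 UMIs and a ratio of 0.888 (0.545 to 1.47). Dendritic cells had 9 and 4 UMIs, with a ratio of 1.47 (0.411 to 6.55), and goblet cells 5 and 15, with a ratio of 0.385 (0.109 to 1.11). Both of these intervals include 1, so a difference was not detectable at this depth. In the model library the level ran from fibroblasts through macrophages or monocytes, dendritic, T and crypt cells, enterocytes and goblet cells down to plasma cells, which had 2 and 1 UMIs, 0.357 and 0.241 CPM, in the model and control library. Endothelial cells had 0 UMIs in either library. Macrophages, fibroblasts and dendritic cells of the model library had overlapping intervals, and so did crypt cells, enterocytes and goblet cells. In the control library enterocytes, at 11.01 CPM, stood above T cells, at 7.83 CPM, with overlapping intervals.

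**Figure D1:**
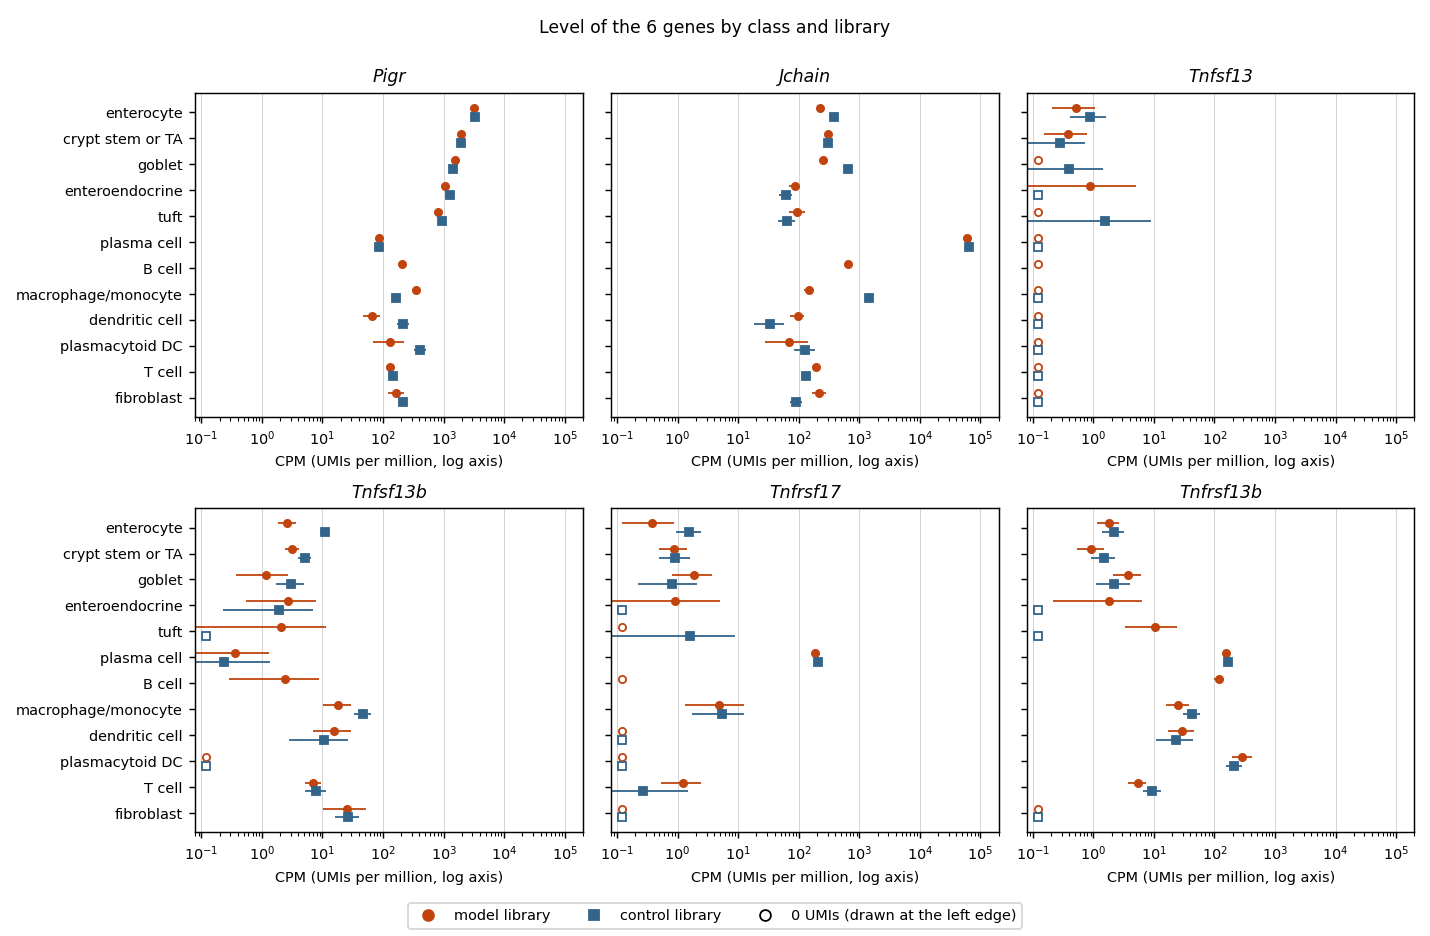
Level of each of the 6 genes in 12 cell classes, in CPM on a log axis. Circles are the model library and squares the control library, lines are exact 95% Poisson intervals (cut where they pass the left edge), open symbols at the left edge are 0 UMIs, and a class with under 10 cells in a library has no symbol for it. Pigr is highest in epithelium, Jchain and Tnfrsf17 in plasma cells, Tnfrsf13b in plasmacytoid dendritic, plasma and B cells, and Tnfsf13b in macrophages and fibroblasts.

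Within enterocyte clusters, each with fewer than 50 Tnfsf13b UMIs, the level was lower in the model library in 3 of the 4 that had model UMIs. Cluster 2, led by Reg1 and Gsta1, had 8 model and 25 control UMIs, 0.795 and 6.74 CPM, with a ratio of 0.118 (0.0460 to 0.270). Cluster 6, led by Slc5a12 and Pck1, had 11 and 25 UMIs and a ratio of 0.473 (0.210 to 0.998). Cluster 18, with 73 model and 52 control cells, had 3 and 9 UMIs and a ratio of 0.232 (0.0403 to 0.928). Cluster 10, led by Ly6m and Clca4a, was the exception with 13 and 28 UMIs, 21.1 and 18.4 CPM, and a ratio of 1.15 (0.545 to 2.29). Cluster 14 had 0 UMIs in 28 model cells, with an upper limit of 32.3 CPM, and 40 UMIs in 838 control cells, 10.9 CPM. The unnamed epithelial cluster 3, led by Gsdmc4 and Gsdmc2, had 32 and 35 UMIs and a ratio of 0.554 (0.332 to 0.922).

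**Figure D2:**
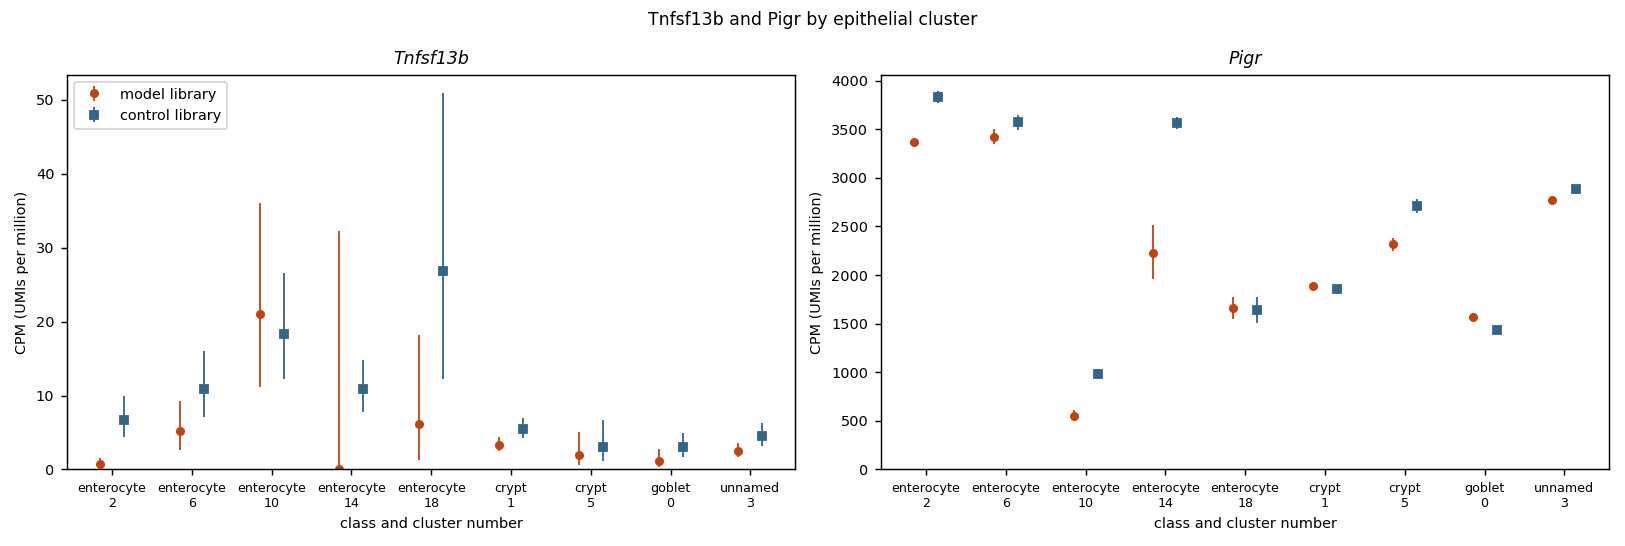
Tnfsf13b (left) and Pigr (right) in CPM in each epithelial cluster, with the class and the cluster number on the x axis, model circles left of control squares and exact 95% Poisson intervals. Tnfsf13b is lower in the model library in enterocyte clusters 2, 6 and 18 and not in cluster 10, while Pigr is lower mainly in clusters 10 and 14.

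No small set of cells carried the Tnfsf13b molecules. The 3 cells with the most held 6 of the 35 model UMIs and 9 of the 127 control UMIs in enterocytes, and 4 of 15 and 8 of 43 in macrophages. Macrophage markers also differed in the enterocyte class: 9 of 12 were lower in the model library, and their sum stood at 11.9 and 22.6 CPM, with Fcgr1 at 0 in both libraries and C1qa at 1.86 and 5.29 CPM. Enterocytes with no UMI of C1qa, C1qb or C1qc, chosen after the data were seen, were 1318 of 1362 model and 1845 of 1925 control enterocytes. They held 34 of the 35 and 120 of the 127 Tnfsf13b UMIs, with a ratio of 0.240 (0.159 to 0.354), which shares nearly all its molecules with the value for the whole class. In crypt cells macrophage markers summed to 10.2 and 18.3 CPM, a ratio of 0.556 (0.458 to 0.674). Of these 12 markers 7 were lower in the model library, among them Lyz2 with 34 and 92 UMIs and Ly6c2 with 22 and 49. C1qc, Adgre1, Csf1r, Mrc1 and Ms4a7 were higher. Ly6c2 also had 2957 and 2016 UMIs in plasma cells. Crypt cells with no UMI of the C1q genes had 56 and 65 Tnfsf13b UMIs. Their ratio was 0.674 (0.463 to 0.978), which is just short of 1.5-fold. Fibroblast markers summed to 3.43 and 10.3 CPM in enterocytes and were lower in 6 of 9 cases. Dendritic cell markers summed to 41.6 and 30.9 CPM, although 6 of 11 were lower in the model library. T cell markers had a ratio of 1.14, with 1 of 10 lower, and B cell markers 1.62, with 2 of 11 lower. The part of these other cells in the result was not tested. In the macrophage class fibroblast markers summed to 105 and 18.4 CPM, T cell markers to 228 and 122 CPM and plasma cell markers to 879 and 5431 CPM. Igha held 453 of the 734 model and 4501 of the 5029 control UMIs of the plasma cell markers. The part of these 3 marker sets in the Tnfsf13b ratio of macrophages was not tested either.

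The Tnfsf13b difference changed with the limit on mitochondrial UMIs. Barcodes above the limit of 25%, 2480 in the model and 1997 in the control library, held 67 and 60 Tnfsf13b UMIs, with a ratio of 0.877 (0.610 to 1.26). With no such limit the log2 ratio in enterocytes was −1.12, with a limit of 10% it was −3.59, and at the limit used it was −2.08. Enterocytes had a median of 15.6% mitochondrial UMIs in the model and 17.7% in the control library.

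Tnfsf13, which encodes APRIL, was near the limit of detection throughout. It had 17 UMIs in all kept model cells and 21 in all kept control cells, of which 15 and 17 lay in named epithelium, 0.398 and 0.519 CPM, with a ratio of 0.767 (0.357 to 1.63). Macrophages or monocytes, dendritic, plasmacytoid dendritic, plasma, B and T cells all had 0 UMIs, which in macrophages leaves an upper limit of 4.42 and 3.98 CPM. Tnfsf12, a neighbouring gene with its own row, had 21 and 22 UMIs in macrophages, 25.2 and 23.8 CPM. How reads shared by the overlapping transcripts of these genes were counted is not given in the sources used here.

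Tnfrsf17, which encodes BCMA, marked plasma cells and differed little between the libraries there. Plasma cells held 1027 UMIs in 655 model cells and 863 UMIs in 471 control cells, 183 CPM (172 to 195) and 208 CPM (194 to 222), with a ratio of 0.882 (0.805 to 0.966). Of all Tnfrsf17 UMIs, 95.4% in the model and 92.4% in the control library lay in plasma cells. A UMI was seen in 60.6% of model and 63.9% of control plasma cells at a median depth of 9016 and 9516 UMIs, against 0.329% and 0.100% of T cells at 2800 and 3294 UMIs. The 270 model B cells had 0 UMIs, an upper limit of 4.43 CPM.

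Tnfrsf13b, which encodes TACI, was spread over more classes. Plasma cells had 860 and 705 UMIs, 153 CPM (143 to 164) in the model and 170 CPM (157 to 183) in the control library, with a ratio of 0.904 (0.817 to 1.00). Plasmacytoid dendritic cells, 24 and 40 in number, stood higher at 289 CPM (193 to 415) and 210 CPM (153 to 281), from 29 and 45 UMIs. Model B cells had 99 UMIs, 119 CPM (96.6 to 145). Tnfrsf13c, the BAFF receptor gene, stood at 208 CPM in the same B cells and at 20.2 CPM in plasma cells of both libraries. Macrophages or monocytes had 21 and 39 Tnfrsf13b UMIs, a ratio of 0.597 (0.334 to 1.04), and T cells 35 and 35, a ratio of 0.572 (0.348 to 0.942); both were past 1.5-fold, at levels of 25.2 and 42.1 CPM and of 5.41 and 9.46 CPM. Fibroblasts and endothelial cells had 0 UMIs.

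Both receptors were found in the same cells about as often in each library. A UMI of both was present in 311 of 655 model and 243 of 471 control plasma cells, Tnfrsf17 alone in 86 and 58, Tnfrsf13b alone in 118 and 74, and neither in 140 and 96. Thus 78.6% and 79.6% of plasma cells showed at least 1 of the receptors. Among the cycling plasma cells of cluster 9, 51 model and 23 control cells, Tnfrsf17 had 88 and 65 UMIs, 123 and 205 CPM, a ratio of 0.596 (0.428 to 0.835), while Tnfrsf13b had 130 and 52 UMIs and a ratio of 1.10 (0.793 to 1.55). In the larger cluster 8, 604 and 448 cells, the ratios were 0.924 (0.840 to 1.02) for Tnfrsf17 and 0.878 (0.789 to 0.977) for Tnfrsf13b. The difference between the 2 clusters was not tested.

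**Figure D3:**
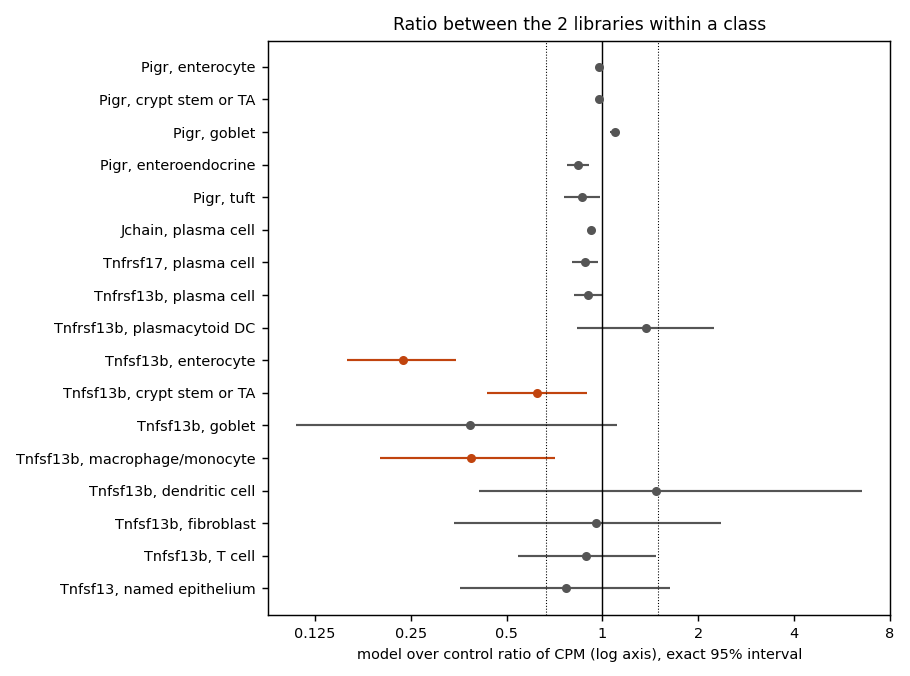
Model over control ratio of the level (log axis) for the named gene and class, with exact 95% intervals of counting error. Dotted lines mark 1.5-fold either way, and orange marks ratios past it with at least 50 UMIs. The 3 orange points are Tnfsf13b in enterocytes, crypt cells and macrophages, and every Pigr, Jchain and receptor point shown lies inside the lines.

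Jchain was the most abundant of the 6 genes and was present in every plasma cell. It had 334887 UMIs in model and 268833 in control plasma cells, 59720 and 64702 CPM, with a ratio of 0.923 (0.918 to 0.928), a difference that is past counting error and far inside 1.5-fold. A plasma cell held a median of 536 Jchain UMIs in the model library (quartiles 209 and 777) and 595 in the control library (quartiles 244 and 859). Igha, the IgA heavy chain gene, had a ratio of 0.883 in the same cells, so that Jchain stood at 55.2 UMIs per 100 Igha UMIs in the model and at 52.8 in the control library. Cycling plasma cells had less Jchain, 27260 and 31398 CPM, than those of cluster 8, 64489 and 67448 CPM. Plasma cells whose leading heavy chain was an Ighg gene, 21 and 10 cells, had 28916 and 38770 CPM.

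Outside plasma cells, the share of Jchain UMIs held by the 3 cells with the most differed widely between classes. T cells, which do not make it, had a UMI in 36.5% of model and 34.5% of control cells at median depths of 2800 and 3294 UMIs, and enterocytes in 53.1% and 47.3% at 6715 and 4312 UMIs, so such detections are read as background and not as expression. In enterocytes the ratio was 0.591 (0.564 to 0.619) from 3033 and 4417 UMIs, and 3 cells held 1466 and 2250 of them. In goblet cells 3 cells held 807 of 1096 model and 2354 of 3249 control UMIs, and without them the log2 ratio was −1.41, against −1.36 with them. In T cells 3 cells held 85 of 1241 and 34 of 488. In macrophages or monocytes 3 control cells held 1201 of 1318 UMIs, against 18 of 122 in the model library, and without the 3 top cells of each library the log2 ratio was −0.07, against −3.28 with them. Model T cells had 33.2 Jchain UMIs per 100 Igha UMIs and control T cells 29.8. Enterocytes had 35.9 and 36.3, and macrophages 26.9 and 29.3, all below the ratio in plasma cells. Model B cells had 82.8 (73.7 to 92.9), with 240 of their 538 Jchain UMIs in 3 cells.

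Pigr, the transporter, was highest in epithelium and, over all named epithelium, nearly the same in both libraries. Enterocytes had 42609 and 37532 UMIs, 3178 CPM (3148 to 3208) in the model and 3254 CPM (3221 to 3287) in the control library, with a ratio of 0.977 (0.963 to 0.990). Crypt cells had 1932 and 1974 CPM, a ratio of 0.979 (0.964 to 0.994), and goblet cells 1572 and 1437 CPM, a ratio of 1.09 (1.06 to 1.13). Enteroendocrine cells had 1072 and 1276 CPM, a ratio of 0.840 (0.776 to 0.909), and tuft cells 815 and 945 CPM, a ratio of 0.863 (0.758 to 0.981). Of the tuft UMIs, 3 cells held 177 of 395 in the model and 358 of 597 in the control library. The median tuft cell stood at 217 and 242 CPM, so the tuft level and ratio lean on few cells. The order of these 5 classes was the same in both libraries, from enterocytes down to tuft cells, with no overlap of intervals between neighbours. Over all named epithelium the ratio was 1.00 (0.993 to 1.01).

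Pigr varied more between enterocyte clusters than between libraries. It stood at 3371 and 3829 CPM in cluster 2 and at 3422 and 3570 CPM in cluster 6, but at 553 and 982 CPM in cluster 10, with a ratio of 0.563 (0.499 to 0.633). Cluster 14 had 2226 and 3566 CPM, a ratio of 0.624 (0.549 to 0.707), from 28 model cells. In clusters 10 and 14 the share of all genes past 1.5-fold lower was 13.6% and 32.3%. The mean log2 ratio over enterocyte clusters with at least 50 cells in each library was −0.26, against −0.03 in all enterocytes.

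A Pigr UMI was present in 95.5% of model and 96.7% of control enterocytes, at median depths of 6715 and 4312 UMIs, and in 29.6% and 39.4% of T cells, at 2800 and 3294 UMIs. With each cell thinned to 1000 UMIs the shares were 85.8% and 85.5% of enterocytes and 12.8% and 14.1% of T cells. Plasma cells had 85.4 and 84.7 CPM and T cells 130 and 146 CPM, levels read as background. In macrophages or monocytes Pigr stood at 353 and 163 CPM, past 1.5-fold higher in the model library. There 3 cells held 123 of the 295 model UMIs and 31 of the 151 control UMIs. The rest of the class still held more UMIs in the model library, 172 against 120, where the class had 206 model and 229 control cells. The ratio without the top cells was not computed.

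Genes of the pathway around these 6 were followed in 7 lists, in enterocytes, macrophages or monocytes, and plasma cells. In enterocytes, where 16% of all genes were past 1.5-fold higher and 8.99% lower and the median log2 ratio of all genes was 0.09, 5 of 13 measured genes of BAFF and APRIL receptor signalling were lower in the model library and 0 higher, with a median of −0.43. The count of lower genes was 3 with a mitochondrial limit of 10%, with no limit and with each cell thinned to 1000 UMIs. The minimum of 50 UMIs held for the thinned counts too, so a gene could leave this count whatever its ratio. The receptor genes Tnfrsf17 and Tnfrsf13b, which are not on this list, were scarce in enterocytes. Tnfrsf17 had 5 model and 18 control UMIs there and Tnfrsf13b 24 and 25. The list is named for its genes, and signalling through these receptors in enterocytes was not tested. Nfkb2, a subunit precursor of the alternative NF-kB pathway, had 117 and 263 UMIs and a ratio of 0.383 (0.305 to 0.478). Its partner Relb had 556 and 958 UMIs and a ratio of 0.499 (0.449 to 0.555). Tnfrsf12a, the TWEAK receptor gene, stood at 0.599, the adaptor gene Traf2 at 0.605 and the pro-apoptotic Bcl2l11 at 0.610. At the other end Traf3 stood at 1.00 and Bcl2 at 1.13.

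These signalling genes did not differ in the same way within clusters. In cluster 2, 2 of 12 measured genes were lower (Tnfrsf12a and Bcl2l11), in cluster 6, 0 of 7, in cluster 10, 2 of 5 (Nfkb2 and Relb), and in cluster 18, 0 of 4; 0 were higher in any of them. The share of all genes that were lower was 3.98% in cluster 2, 3.54% in cluster 6, 13.6% in cluster 10 and 9.71% in cluster 18, and the share that were higher was 3.95%, 4.78%, 10.7% and 8.59% in the same order. Relb had a ratio of 0.929 (0.758 to 1.14) in cluster 2 and 0.946 (0.752 to 1.19) in cluster 6, and Nfkb2 0.717 and 0.927. Cluster 14, with 28 model and 838 control enterocytes, was left out of these counts. Its part in the values of these genes over all enterocytes was not tested.

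**Figure D4:**
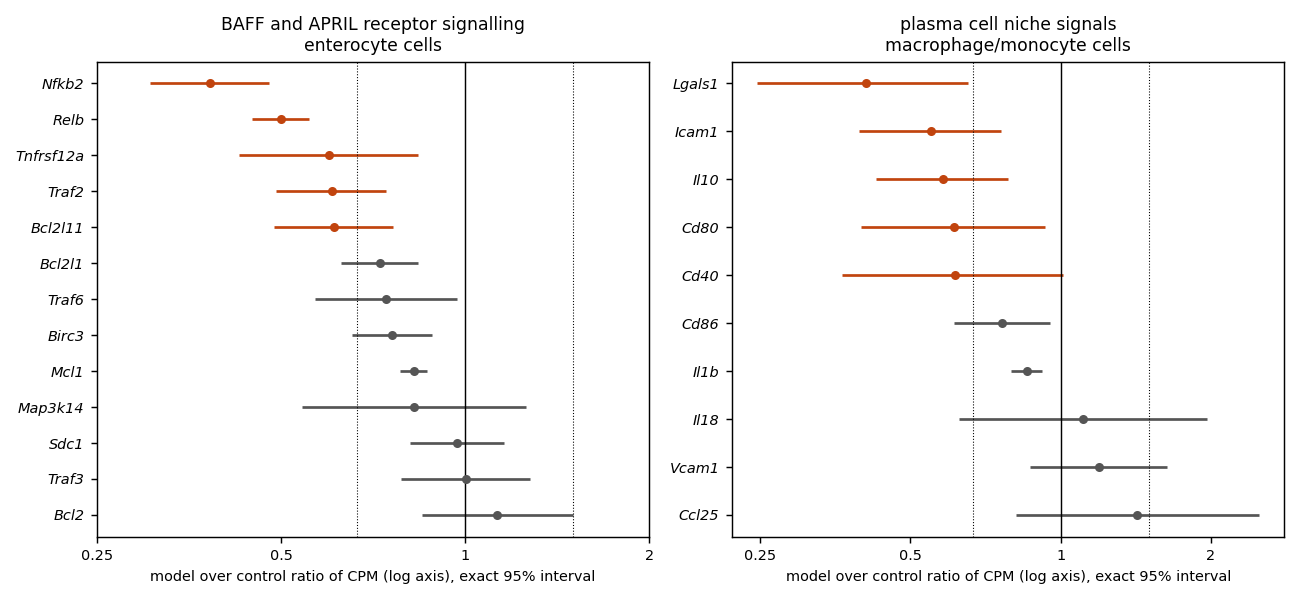
Model over control ratio (log axis, exact 95% interval of counting error) of the measured genes of BAFF and APRIL receptor signalling in enterocytes (left) and of plasma cell niche signals in macrophages or monocytes (right). Dotted lines mark 1.5-fold and orange marks genes past it. In enterocytes 5 of 13 measured genes are lower in the model library and 0 higher, where 8.99% of all genes are lower and 16% higher. In macrophages or monocytes 5 of 10 are lower and 0 higher, where 6.71% of all genes are lower and 10.3% higher. With each cell thinned to 1000 UMIs the counts of lower genes are 3 and 1.

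Of 19 measured IgA transport partners and regulators in enterocytes, 1 was higher and 4 were lower (median −0.21). Rab25, a small GTPase of apical recycling, had a ratio of 1.75 (1.59 to 1.92) and the clathrin adaptor gene Ap1m2 1.14. The interleukin-22 receptor gene Il22ra1 stood at 0.388 (0.256 to 0.579), Igha, as background here, at 0.599, the interleukin-4 receptor gene Il4ra at 0.649 and Rela at 0.652. Of 4 measured niche signals, Il18 stood at 2.85 (2.69 to 3.01) and Ccl25, which attracts cells that carry Ccr9, at 1.59 (1.54 to 1.64). Ccl28, which attracts IgA plasma cells through Ccr10, was lower at 0.588 (0.449 to 0.766), with 97 and 142 UMIs, and Il33 stood at 0.766. Among 11 genes of IgA switching and induction, 1 was higher, the retinal dehydrogenase gene Aldh1a1 at 2.10, and 2 were lower, Nos2 at 0.0424 and Smad7 at 0.663. Nos2 led cluster 14, which is nearly all control cells, and the part of that cluster in its value was not tested.

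The other lists in enterocytes hold genes of plasma cells that enterocytes also use or that appear there as background. Of 15 secretory genes, 3 were higher (Sec61b at 1.90, Ssr4 at 1.78 and Sec11c at 1.75) and 2 lower (Prdm1 at 0.476 and Ell2 at 0.568), with a median of 0.35. Of 8 immunoglobulin constant genes 3 were higher, led by Iglc3 at 3.40 and Ighg2c at 2.54 with Iglc1 at 1.84, and 3 lower, Ighg2b at 0.477, Igha at 0.599 and Igkc at 0.605. Of 7 genes for plasma cell receptors 0 were past 1.5-fold, from Cd44 at 0.688 and Itga4 at 0.726 to Itgb1 at 0.891 and Il6st at 0.929.

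Macrophages or monocytes had lower levels of several niche signals in the model library. Of 10 measured, 5 were lower and 0 higher, with a median of −0.55, where all genes of the class had a median of 0.05, 10.3% were higher and 6.71% lower. Lgals1, a galectin gene, had 25 and 68 UMIs and a ratio of 0.408 (0.247 to 0.653), and the adhesion gene Icam1 58 and 117 UMIs and a ratio of 0.550 (0.394 to 0.759). Il10, an anti-inflammatory cytokine gene, had 68 and 130 UMIs, 81.4 and 140 CPM, and a ratio of 0.580 (0.426 to 0.784). The costimulatory genes Cd80 and Cd40 stood at 0.612 and 0.613, and the interval of Cd40 reached 1.01. Vcam1 at 1.19 and Ccl25 at 1.42 were the highest. With each cell thinned to 1000 UMIs, 1 gene of this list was past 1.5-fold lower.

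In the same cells, of 12 transport genes 2 were lower, Nfkb1 at 0.607 and Igha, like Jchain here, at 0.112, and 0 were higher, with Irf1 at 1.47 and Ifngr1 at 1.36 on top. Of 7 signalling genes, Birc3 was lower at 0.613 and Bcl2 higher at 1.59; Bcl2l11 stood at 0.803 and Relb at 1.40. Of 9 receptor genes, Slamf7 at 0.386 and Cxcr4 at 0.591 were lower, with Il6st at 1.25 and Cd93 at 0.964 highest. Of 14 secretory genes 4 were lower (Tent5c at 0.364, Txndc5 at 0.540, Creld2 at 0.565 and Pdia4 at 0.665) and Sec61b was higher at 1.79, followed by Ssr4 at 1.36. Plasma cell markers, among them Igha, Tent5c, Txndc5 and Creld2, summed to 879 and 5431 CPM in this class, a ratio of 0.162. Igha alone held 453 of the 734 model and 4501 of the 5029 control UMIs of this sum. Of the 10 markers 7 were lower in the model library. In this class 3 control cells held most of the Jchain, but the part of such cells in this list was not tested. Of 7 switching genes 0 were past 1.5-fold, from Tgfbr2 at 0.834 and Runx3 at 0.924 to Rara at 1.11 and Smad7 at 1.40. Of 4 immunoglobulin genes, Igha and Igkc (0.152) were lower, Iglc1 higher at 2.63, and Ighm stood at 0.867.

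Plasma cells themselves showed few differences in these lists, apart from the immunoglobulin constant genes. Of all their genes, 5.4% were past 1.5-fold higher and 3.97% lower. Of 12 signalling genes 1 was lower, Relb at 0.615 (0.458 to 0.824) with 88 and 106 UMIs; Nfkb2 stood at 0.691, Bcl2l1 at 1.21 and Bcl2 at 1.28. Mzb1, an endoplasmic reticulum protein gene of plasma cells that promotes J chain binding to IgA, was lower at 0.641 (0.482 to 0.850) with 96 and 111 UMIs. It was the 1 gene lower among 16 transport genes, where Stat6 stood at 0.721, Traf3ip2 at 1.10 and Myo5b at 1.15, and among 20 secretory genes, where Derl3 stood at 0.793, Eaf2 at 1.14 and Sec11c at 1.16. Of 14 receptor genes 2 were higher, the chemokine receptor genes Cxcr3 at 1.65 (0.922 to 3.05) and Cxcr4 at 1.53 (0.975 to 2.45), both with intervals that include 1. Itgb7 stood at 0.718 and Itga4 at 0.811, the pair that forms the gut-homing integrin. Of 7 switching genes 0 were past 1.5-fold, with Runx2 at 0.717, Tgfbr1 at 0.881, Runx3 at 1.03 and Tgfbr2 at 1.41, and of 5 niche signals 0, with Lgals1 at 1.08, Il10 at 1.17, Il18 at 1.22 and Icam1 at 1.40. Of 10 immunoglobulin constant genes 3 were higher, Ighg1 at 34.6, Ighg3 at 17.3 and Ighm at 1.80. Another 2 were lower, Ighg2b at 0.312 and Iglc2 at 0.388. The leading heavy chain was an Ighg gene in 21 of 655 model and 10 of 471 control plasma cells. It was Ighm in 1 cell of each library. How many cells carry these ratios was not tested.

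The genes whose levels ran most like each of the 6 over 15 named classes, with both libraries pooled, are given as a description; the classes share 2 libraries and free RNA, so the correlations are not independent evidence. For Pigr they were Vdr, Nlrp6, Ccl25, Abhd17c and Hnf4g, with Pearson r of log2(CPM + 1) of 0.98 to 0.97. For Jchain they were Igkc, Igha, Iglc1, Iglv1 and Igkv1-110 (0.99 to 0.93), and for Tnfrsf17 Igha, Prg2, Jchain, Ccr10 and Iglv1 (0.97 to 0.92). For Tnfrsf13b they were Rilpl2, Ighm, E330020D12Rik, Gvin3 and Sub1 (0.92 to 0.88). For Tnfsf13b the likeness was weaker, with Mospd3, Sulf2, Adamdec1, Naaa and Cxcl16 at 0.81 to 0.73. For Tnfsf13, which rests on 38 UMIs, they were Elmo3, Tmem45b, Fam234a, Eps8l3 and Cisd3 (0.94 to 0.90).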

How the data were processed

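The deposited matrices hold raw UMI counts per gene and cell barcode of 1 model and 1 control library, and per the file headers Cell Ranger 7.0.1 wrote them. Version 4.0 of Cell Ranger and build GRCm39 stand in the submitters' processing notes. Which annotation was counted, and whether intron reads were, is not given in the sources used here. The 2 matrices hold 76701215 and 61370270 UMIs in 11468 model and 10259 control barcodes.

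Barcodes passed with 500 or more UMIs, 200 or more genes and no more than 25% mitochondrial UMIs (7913 model and 7329 control cells). Counts were scaled to 10000 per cell, and 2000 variable genes (leaving out the 6 genes, ribosomal protein and mitochondrial genes, antibody genes and variable segments of the T cell receptor), 30 principal components and 15 neighbours gave Leiden clusters at resolution 1 with scanpy 1.11.5 and igraph 0.11.9, run in Python 3.11.15 with numpy 2.4.6, scipy 1.17.1 and pandas 2.3.3. A cluster took a class name from at least 3 markers at 2-fold that were seen in 10% of its cells or more, read with its 10 leading genes. A cluster with as many leading markers of another class stayed unnamed, a rule set after the clusters were seen, which left 1 low-RNA cluster of 62 model and 1164 control cells unnamed. Scrublet called 0 doublets in either library, so its calls were not used and no doublets were removed. Its scores entered 1 alternative, and whether they mark doublets here was not tested.

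Levels are summed UMIs as CPM with exact Poisson 95% intervals, and ratios of model over control carry exact Clopper-Pearson intervals of the split of UMIs. Since each group is 1 library, no p-value is given. The scripts were tested on simulated data. The text names the 6 genes, the list genes with at least 50 UMIs that have the 2 highest and 2 lowest ratios in enterocytes, macrophages or plasma cells or that are past 1.5-fold, and the 5 genes most correlated with each of the 6 among genes with at least 1000 UMIs. The members and lists were chosen with earlier results of these data known. Tnfsf13b in enterocytes, crypt cells and named epithelium, Jchain in goblet cells and macrophages, the list counts, the marker sums, the cluster means and the values without C1q or without the 3 top cells were added after the data were seen. The alternatives tried were other limits on mitochondrial UMIs and depth, other ways of clustering and naming cells, removal of high Scrublet scores, thinning, and other totals.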

Additional observations from a re-analysis of the deposited data

Results flagged for a closer look

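Jchain went in opposite directions between classes outside plasma cells, and the difference between these classes was not tested. The model over control ratio was 0.103 in macrophages or monocytes, 0.389 in goblet cells and 0.591 in enterocytes, and 1.54 in endothelial cells and 2.38 in fibroblasts. The endothelial value rests on 29 model and 30 control UMIs and its interval, 0.893 to 2.66, includes 1. In fibroblasts 3 cells held 31 of the 60 model UMIs and 13 of the 69 control UMIs.

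Barcodes above the mitochondrial limit, which are not among the kept cells, held more Tnfrsf13b in the model library. The gene had 23 model and 5 control UMIs there, 2.61 and 0.723 CPM, a ratio of 3.61 (1.34 to 12.2).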

How the results depend on the processing

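Values here are log2 ratios of model over control unless said to be counts. Of 169 alternative values, 126 stayed within the counting interval or within 1.5 times the count, 42 moved further and 1 past 1.5-fold turned round, Jchain in macrophages, which stood at −3.28 and at 0.24 once the top 8% of Scrublet scores were dropped. The sign changed in 4 of the 169, this one and 3 Pigr values close to 0. Pigr in enterocytes (−0.03) gave −0.12 with a mitochondrial limit of 10%, −0.12 with no limit, 0.0050 thinned to 1000 UMIs, −0.070 without mitochondrial and ribosomal genes in the total, 0.0043 as a mean over cells and −0.26 as a mean over clusters. Pigr in crypt cells (−0.03) gave 0.0030 at 10%, −0.22 with no limit, −0.077 with the 6 genes eligible for clustering, −0.056 with libraries clustered alone, −0.13 thinned and −0.22 as a mean over cells. Pigr in goblet cells (0.13) gave 0.19 at 10%, 0.22 with cells named by marker score, 0.19 without high Scrublet scores and 0.27 thinned. Jchain in plasma cells (−0.12) gave −0.14 at 10%, −0.10 with no limit, −0.13 with the 6 genes eligible, −0.10 without high Scrublet scores, −0.076 thinned, −0.14 without immunoglobulin genes in the total and −0.077 as a mean over cells. Tnfsf13b in enterocytes (−2.08) gave −3.59 at 10%, from 5 model and 23 control UMIs, −1.12 with no limit, −1.48 as a mean over cells and −1.52 as a mean over clusters. Tnfsf13b in named epithelium (−1.28) gave −0.83 with no limit and −1.68 thinned. In crypt cells Tnfsf13b (−0.68) ran from −1.14 to −0.30 and came inside 1.5-fold with no limit (−0.52), with at least 1000 UMIs (−0.50), with the 6 genes eligible (−0.30) and with libraries clustered alone (−0.54). In macrophages it ran from −1.56 to −0.80. The count of lower BAFF and APRIL signalling genes in enterocytes was 5, and 3 at 10%, with no limit and thinned. The count of lower niche genes in macrophages was 5, and 1 thinned. For both lists the minimum of 50 UMIs applied after thinning, so genes could drop out whatever their ratio. How far this minimum lowered the counts, and the cause of the other shifts, was not tested. Tnfsf13 in macrophages gave no value, with 0 UMIs in both libraries. No paired analysis was possible because each group holds 1 library, and for the same reason no replicate could be left out.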
